A study of Mus musculus with 21 samples.

Results

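Quiescent muscle stem cells (MuSCs) were the cells that the study's finest annotation labelled as quiescent. There were 1285 of them among 87822 cells from 21 mice, and every mouse had at least 2. The label came from the position of a cell on a trajectory of myogenic differentiation, computed on integrated expression values from many muscle datasets, so it was not set from the time point of the mouse. The cells were taken by single-cell RNA sequencing of dissociated tibialis anterior muscle, a muscle of the lower leg, from female C57Bl/6J mice aged 20 months, with no transgene or other allele named. Of the mice, 4 were uninjured, and the others were taken at 1 (4 mice), 2 (3), 3.5 (4), 5 (3) or 7 (3) days post-injury (dpi) with notexin, a snake venom toxin that destroys myofibers. Each sample was 1 mouse, injured and analysed on its own by the study's methods. Mice of several time points were collected on the same day, up to 4 samples a day, and the day of a sample was not given in the sources used here, so days could not be compared.

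MuSCs, also called satellite cells, lie between a myofiber and its basal lamina, and in resting muscle nearly all of them are out of the cell cycle. Injury makes them enter the cycle, and their progeny either differentiate and fuse into new myofibers or return to quiescence and refill the stem cell pool. They are known by the transcription factors Pax7 and Myf5. The data used here give totals and gene class shares per cell and no value of a single gene, so the label could not be compared with Pax7 or Myf5.

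The tables gave for each cell its number of unique molecular identifiers (UMIs, which count captured transcripts, here after subtraction of ambient RNA), the number of genes detected, the share of its UMIs that came from named gene classes, and labels from 3 methods of integrating the datasets (Harmony, BBKNN and Scanorama). Summed over its cells, a mouse had from 5602464 to 70730171 UMIs and from 974 to 10556 cells. No cell barcode was shared by the quiescent MuSCs of 2 libraries, and 25 of their barcodes also occurred among the cells of another library.

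Each of the 1285 cells was myogenic in the broad classes of all 3 methods. By the study's methods, cells were chosen for the trajectory by cell types that the 3 methods shared. This match was therefore set by the selection and is no check of the label. In the finer labels the methods differed. Harmony, the method the trajectory was built on, placed 1226 of the cells with MuSCs and 59 with myoblasts or progenitors. Scanorama called 1282 of them committed progenitors. BBKNN split them by time point: of the 122 cells from uninjured muscle it labelled 98 as MuSCs, of the 36 cells from 1 and 2 dpi it labelled 31 as Myoblasts_2, and of the 1127 cells from 3.5 to 7 dpi it labelled 1113 as committed progenitors. In every uninjured mouse between 66.7% and 88.2% of the quiescent cells had the BBKNN label of MuSCs, and in every mouse from 3.5 dpi on it was at most 5.56%, so the groups did not overlap. A label given before the last filter of the study called 17 of the cells from 3.5 to 7 dpi T cells.

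Quiescent MuSCs made up a small share of cells in the first 2 days and then became more frequent than in uninjured muscle. In uninjured mice A to D, 14, 36, 68 and 4 cells were quiescent MuSCs, which was 0.618%, 1.05%, 1.35% and 0.411% of all cells. At 1 dpi there were 5, 4, 11 and 8, and at 2 dpi 3, 2 and 3, although more cells were captured there in sum (18338) than at any other time. At 3.5 dpi there were 22, 29, 130 and 65. The largest numbers came from 5 dpi, with 104, 131 and 190, and 7 dpi, with 188, 196 and 72. In percent of all cells, every mouse of 1 and 2 dpi lay below the lowest uninjured mouse, every mouse of 5 and 7 dpi lay above the highest, and 3.5 dpi (0.703% to 1.93%) overlapped the uninjured mice.

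As a share of all cells, quiescent MuSCs went from 0.859% ± 0.425 (SD, n = 4) without injury to 0.239% ± 0.0696 (n = 4) after 1 day and 0.0554% ± 0.0345 (n = 3) after 2. By 3.5 dpi their mean share was 1.35% ± 0.552 (n = 4), and for the last time points it was 3.55% ± 3.13 (n = 3, 5 dpi) and 3.65% ± 0.841 (n = 3, 7 dpi). Shares of captured cells do not tell apart fewer cells in the muscle and fewer cells released by digestion. The spread at 5 dpi came from replicate C, in which the share was 7.16%, with an exact 95% binomial interval of 6.20% to 8.20%, against 1.95% and 1.55% in replicates A and B. The share changed over the 6 time points (adjusted p = 0.000139 over the 25 labels of the annotation, permutation test of the F statistic). In the same test 20 of the 25 labels changed, or 80.0%, so a call was the rule in this tissue. No single contrast passed after adjustment over 9 contrasts (lowest adjusted p = 0.0643, two-sided exact permutation test). At an unadjusted p under 0.05 there were 4, namely 1, 5 and 7 dpi against uninjured and 2 dpi against 1 dpi, each at 0.0286, the smallest that this exact test gives with these numbers of mice. On the numbers of cells, edgeR without TMM scaling called the fall at 1 dpi (log2 fold -1.93, adjusted p = 0.00658 over the 25 labels) and 2 dpi (-4.1, 3.23e-05) and the rise at 5 dpi (1.99, 0.00351) and 7 dpi (2.04, 0.00333). With TMM scaling it called the falls (adjusted p = 0.00369 and 3.92e-05) and neither of the rises (0.101 for each). In the edgeR test over all time points, 24 of the 25 labels were called with either scaling, so a call was the rule there too.

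The denominator moved with injury too. A second count used only the non-immune cells that carried a label of the finest annotation. It left out cells without one, such as MuSCs and progenitors with no myogenic state. Counted against these non-immune cells, the share was 0.888% ± 0.438 (SD, n = 4) in uninjured mice and 0.828% ± 0.240 (n = 4) at 1 dpi, a difference that was within the spread (p = 0.857, exact permutation test). It was 0.234% ± 0.0367 (n = 3) at 2 dpi, where no mouse reached the lowest uninjured value of 0.424%. From 3.5 dpi on the means were 6.83% ± 4.19 (n = 4), 8.09% ± 4.80 (n = 3) and 5.29% ± 0.979 (n = 3), and the lowest of these mice had 2.71% where the highest uninjured mouse had 1.39%. Each of the 3 stood at the smallest exact permutation p of 0.0286 against uninjured mice (adjusted p = 0.0857). The groups of 1 dpi and uninjured mice were thus apart against all cells and overlapped against non-immune cells, while those of 2, 5 and 7 dpi were apart from the uninjured mice against both.

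**Figure D1:**
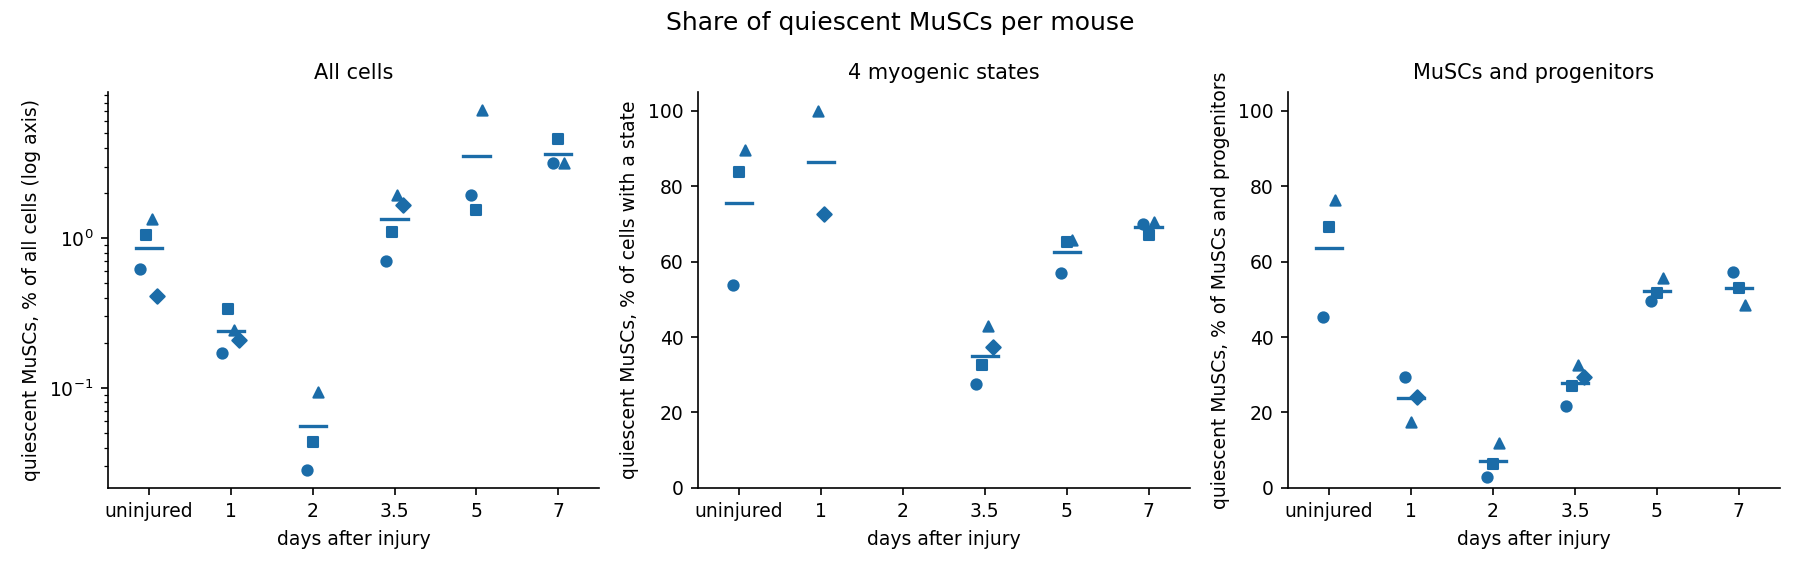
Each point is 1 mouse (marker shape gives the replicate letter) and each line a group mean: quiescent MuSCs in percent of all cells (left, log axis), of cells with 1 of the 4 myogenic states (middle, mice with at least 10 such cells) and of all MuSCs and progenitors (right, mice with at least 10). The share of all cells is lowest at 2 dpi (0.0554%) and highest at 7 dpi (3.65%), while the share of cells with a state is lowest at 3.5 dpi (35.1%).

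Among cells with a myogenic state (quiescent, activated, committed or fusing), the quiescent share was lowest at 3.5 dpi. In uninjured mice A, B and C it was 53.8%, 83.7% and 89.5%, and at 3.5 dpi it was 27.5%, 32.6%, 42.8% and 37.4%. The later mice had 57.1%, 65.2% and 65.7% (5 dpi) and 69.9%, 67.1% and 70.6% (7 dpi). No mouse at 3.5 dpi reached any mouse of these other groups, and the shares at 5 dpi lay below those at 7 dpi without overlap. The 2 mice of 1 dpi with 10 or more such cells had 11 of 11 cells quiescent and 72.7%. Uninjured replicate D and the mice of 2 dpi had fewer than 10.

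The share changed over the 5 time points that could be tested (adjusted p = 0.00662 over the 4 states, permutation test over 15 mice). The means were 75.7%, 35.1%, 62.7% and 69.2% from uninjured to 7 dpi, leaving out 1 dpi. The difference of 3.5 dpi from uninjured mice was -40.6 percentage points and that of 5 dpi from 3.5 dpi was 27.6 points, both at the smallest exact permutation p of 0.0286 (adjusted p = 0.0857). At 3.5 dpi there were 246 quiescent cells beside 154 activated MuSCs, 60 committed myoblasts and 187 fusing myocytes, and at 7 dpi 456 beside 104, 60 and 43.

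Not every MuSC or progenitor carried a state: 812 of the 2945 cells that Harmony placed with MuSCs or progenitors had none, and their part of all MuSCs and progenitors was uneven, at 27.6% in uninjured muscle, 77.0% and 89.1% on days 1 and 2, and between 17.4% and 23.4% from 3.5 dpi on. Counted against all MuSCs and progenitors, quiescent cells made up 63.6% in uninjured muscle and, in order of time, 23.7%, 7.01%, 27.7%, 52.3% and 53.0% after injury (means of 3, 3, 3, 4, 3 and 3 mice). This share changed over time as well (p = 1.00e-05 in the permutation test, the smallest that 100000 resamples give). With the stateless cells counted in, the share of all cells would be 1.32% in uninjured mice and 0.773% at 2 dpi, with overlap (lowest uninjured mouse 0.924%, highest mouse of 2 dpi 0.976%), so the size of the difference rests on how these cells are counted.

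The few quiescent MuSCs of 1 and 2 dpi had few UMIs and small shares of some RNA classes. Their median number of UMIs per mouse was 1319, 1508, 1333 and 1487 at 1 dpi and 1495, 1799 and 1896 at 2 dpi, where the tables held no cell under 1000 UMIs. In uninjured mice it was 6354, 3849, 5349 and 6043, and in all other cells of the mice at 1 and 2 dpi it was between 3875 and 9235. All 7 mice lay below every uninjured mouse and below the other cells of the same muscle. The low number was shared with the MuSCs and progenitors without a state, whose medians were 1639, 1879, 2351 and 1472 UMIs at 1 dpi and 1373, 1701 and 2873 at 2 dpi. Of the 36 cells, 23 had fewer than 750 genes, against 1 of 122 in uninjured muscle and 12 of 1127 from 3.5 dpi on.

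These early cells also had almost no long intergenic noncoding RNA (lincRNA), a class of transcripts that lie between protein coding genes and are not translated. LincRNA took 0.0577% ± 0.0402 (SD, n = 4) of UMIs at 1 dpi and 0.0506% ± 0.0200 (n = 3) at 2 dpi, against 2.68% ± 0.414 (n = 4) in uninjured mice. Other cells of the mice at 1 and 2 dpi had 1.21% and 1.26%. The stateless MuSCs and progenitors had 1.68%, 0.0674%, 1.67% and 0.151% at 1 dpi and at least 1.87% in each of the 3 mice at 2 dpi, where they did not overlap the quiescent cells. In 33 of the 36 cells the lincRNA share was under 0.2%, which was the case in none of the 122 uninjured cells, and 10 of the 36 had none at all. Between 1000 and 2000 UMIs, the range where most of them lay, the median lincRNA share was 0.0809% in 21 cells of 1 dpi and 2.03% in 4 cells of uninjured muscle, so cells of like size differed.

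Transcription factor genes took 1.66% ± 0.0528 of UMIs at 1 dpi and 1.22% ± 0.0376 at 2 dpi, against 5.40% ± 0.915 in uninjured mice (same mice). Ribosomal protein genes, at 28.3% ± 3.95 and 29.1% ± 2.86 against 26.0% ± 1.53, overlapped between the groups. Only 1 of the 7 mice with such cells had 10 or more. A minimum of 5 cells took in 1 dpi replicates A, C and D, and no contrast against uninjured then passed after adjustment. Both times were tested only with the minimum lowered to 2 cells, a choice made after seeing the data. UMIs, genes, transcription factor share and lincRNA share then stood at the smallest exact permutation p of 0.0286 at both times, and none passed after adjustment (adjusted p = 0.0883).

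Most of these cells were the Myoblasts_2 of BBKNN, a label that only 45 cells of the whole set had, 33 of them quiescent MuSCs. Without them the share of all cells was 0.0384% ± 0.0351 (SD, n = 4) at 1 dpi and 0.0105% ± 0.0181 (n = 3) at 2 dpi. In 3 of these 7 mice none was left, for example 0 of 2912 cells in 1 dpi replicate A, which allows a share of up to 0.103%. The mice at 1 dpi then overlapped those at 2 dpi (p = 0.371, exact permutation test), and both stayed below the uninjured mice without overlap.

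**Figure D2:**
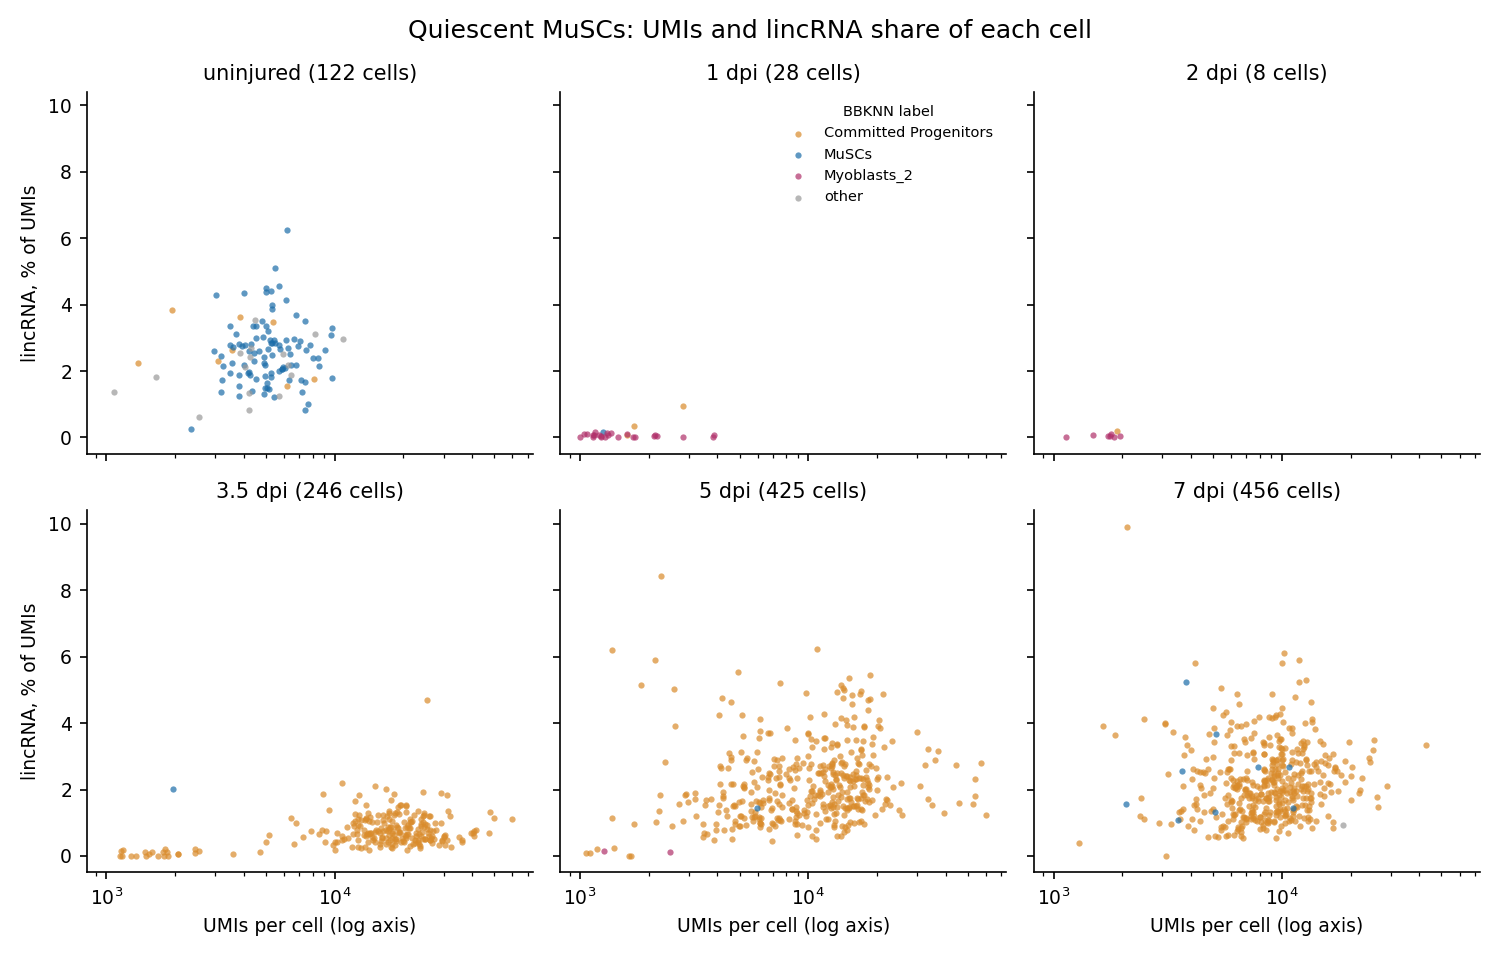
Each point is 1 quiescent MuSC, placed by its UMIs (log axis) and the percent of its UMIs from lincRNA, with 1 panel per time point and colours for the BBKNN label. Cells of 1 and 2 dpi lie at the lower left (33 of 36 under 0.2% lincRNA), and 25 of the 246 cells of 3.5 dpi are also under 0.2%, 15 of them with under 2000 UMIs.

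At 3.5 dpi the opposite was seen for size. The median number of UMIs per quiescent MuSC was 22001, 24617, 17168 and 15052 in mice A to D, and the median number of genes was 4708, 4963, 4324 and 3728. Both were above every other mouse in the uninjured, 1, 2 and 7 dpi groups. At 5 dpi the medians were 10256, 5171 and 15134 UMIs, and at 7 dpi 6620.1, 10596 and 10306, so that in UMIs replicate C of 5 dpi passed the lowest mouse of 3.5 dpi and replicate B lay within the uninjured range.

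On the mice with at least 10 quiescent MuSCs (14 mice, 5 time points), UMIs (adjusted p = 0.00112) and genes (adjusted p = 0.000350) changed over time in the permutation test over 14 measures, of which 9 changed, or 64.3%. Against uninjured mice, quiescent MuSCs at 3.5 dpi had 3.81 times the UMIs and 2.99 times the genes (exact permutation p = 0.0286 for each, the smallest possible, and adjusted p = 0.150 over 42 tests). Sequencing depth per barcode varied within the groups, from 15835 to 117596 reads in uninjured mice and from 30251 to 67365 at 3.5 dpi, and its part was not tested. Other cells of the muscle also had more UMIs at 3.5 dpi, with 12014 UMIs on average over the mice against 3889 in uninjured mice. Taken as a difference from the other cells of the same mouse, the change of UMIs over time did not pass (adjusted p = 0.0710, permutation test), and that of genes did (adjusted p = 0.0130). Against capillary endothelial cells of the same mouse both passed (adjusted p = 0.00246 for UMIs and 0.00149 for genes, permutation test). Those cells had 3191 UMIs on average in uninjured mice and 3542 at 3.5 dpi. They made up 45.3% of all cells in uninjured mice and 5.64% at 3.5 dpi, so the make-up of the other cells differed.

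Deeper cells show more genes, so the number of genes was also read off at 5000 UMIs from a line fitted within each mouse. It was 1448 ± 150.9 (SD, n = 3) without injury and, from 3.5 dpi on, 1872 ± 204.7 (n = 4), 1980.2 ± 158.6 (n = 3) and 1916 ± 41.9 (n = 3) in order of time (adjusted p = 0.0171 over time, permutation test). All 10 mice from 3.5 to 7 dpi, of which the lowest had 1697, were above the 3 uninjured mice, of which the highest had 1546. The ratio to uninjured muscle was between 1.29 and 1.37. Few cells of 3.5 dpi lay near this depth, since 8 of 246 had between 2000 and 5000 UMIs. In the other cells of the same mice the number at 5000 UMIs lay between 1681 and 1926 throughout these groups.

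**Figure D3:**
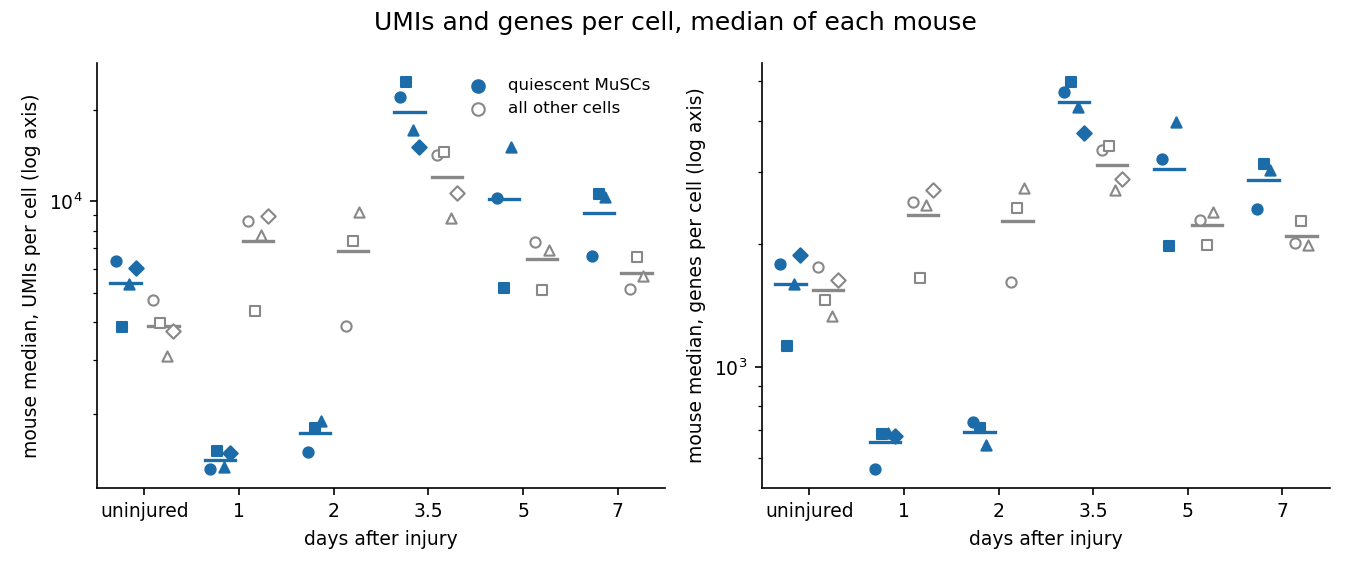
Median UMIs (left) and genes (right) per cell in each mouse, on log axes, for quiescent MuSCs (filled) and all other cells of the mouse (open), with lines at the group means. Quiescent MuSCs lie below the other cells in all 7 mice at 1 and 2 dpi and above them in all 4 mice at 3.5 dpi.

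The lincRNA share of quiescent MuSCs was low at 3.5 dpi and near the uninjured level at 7 dpi. It was 2.58%, 2.24%, 2.65% and 3.24% in the uninjured mice and 0.792%, 0.777%, 0.668% and 0.556% at 3.5 dpi. The mice of 5 dpi had 1.47%, 1.64% and 2.38%, and those of 7 dpi had 1.83%, 2.12% and 2.60%. No mouse at 3.5 dpi reached any mouse of the uninjured, 5 or 7 dpi groups, and the mice at 7 dpi overlapped the uninjured ones. The change over time passed (adjusted p = 0.000350, permutation test), and the difference of 3.5 dpi from uninjured was -1.80 on the log2(percent + 0.0309) scale, at the smallest exact permutation p of 0.0286 (adjusted p = 0.150).

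The other cells of the muscle moved less. Their median lincRNA share averaged 1.81% in uninjured mice and, from 3.5 dpi on, 1.11%, 1.64% and 1.80% in order of time. Quiescent MuSCs had more lincRNA than the other cells in 4 of 4 uninjured mice, less in 4 of 4 mice at 3.5 dpi, and more in 6 of 6 mice at 5 and 7 dpi. As a difference from the other cells of the same mouse the change over time held (adjusted p = 0.000140, permutation test). In cells of 5000 to 15000 UMIs, pooled over mice, the median was 2.63% in 64 uninjured cells, 0.701% in 64 cells of 3.5 dpi, 1.98% in 243 of 5 dpi and 2.03% in 361 of 7 dpi. Depth still differed inside this window. Uninjured mice A and C had medians of 6378 and 6053 UMIs there, and 3.5 dpi replicates C and D had 12680.2 and 12306. The window therefore did not bring the groups to equal depth. With only cells of this window and 10 mice, lincRNA no longer passed (adjusted p = 0.0811, permutation test).

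Transcription factor genes followed the same course. They took 4.06%, 5.62%, 5.86% and 6.07% of UMIs in the uninjured mice and 2.88%, 2.87%, 2.91% and 2.43% at 3.5 dpi. The mice of 5 dpi had 3.03%, 4.32% and 3.97%, and those of 7 dpi had 5.40%, 4.65% and 4.72% (adjusted p = 0.000840 over time, permutation test). The mice at 3.5 dpi were below all others of these groups, and those at 7 dpi lay within the uninjured range. The other cells also dipped, with means of 4.12% in uninjured mice and 2.90%, 3.86% and 4.35% from 3.5 dpi on, in order of time. Quiescent MuSCs had a higher share than the other cells in 4 of 4 uninjured mice and 3 of 3 mice at 7 dpi, and in 2 of 4 mice at 3.5 dpi. As a difference from the other cells of the same mouse, the change over time held (adjusted p = 0.00247, permutation test). With only cells of 5000 to 15000 UMIs it did not pass (adjusted p = 0.0860, permutation test).

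Mitochondrial genes took 18.2% ± 5.07 (SD, n = 3) of the UMIs of quiescent MuSCs in uninjured mice with 10 or more of them, and 11.0% ± 0.422 (n = 4), 12.3% ± 3.09 (n = 3) and 10.1% ± 0.722 (n = 3) from 3.5 dpi on, in order of time (adjusted p = 0.00271 over time, permutation test). The call was lost with mice of at least 2 quiescent MuSCs (adjusted p = 0.0631), of at least 20 (0.0590) and with cells of a doublet score of at most 0.25 (0.0570). In other cells the means were 14.8% in uninjured mice and 4.69% at 3.5 dpi. The direction turned when quiescent MuSCs were taken against the other cells of the same mouse. On the log2(percent + 2.39) scale, the mitochondrial share at 7 dpi was then above that of uninjured mice by 0.41, in place of -0.69 without that comparison. The same held against capillary endothelial cells (0.41).

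Ribosomal protein genes took more of the UMIs of quiescent MuSCs than of the other cells in all 21 mice, with 24.8% against 9.88% on average. Among the 25 labels of the annotation, quiescent MuSCs had the highest mean ribosomal share (23.7%, over mice with at least 5 cells), followed by activated MuSCs. Since the label was built from expression, these ranks are a description. Within quiescent MuSCs the ribosomal share was 26.1% ± 1.85 (SD, n = 3) in uninjured mice and 20.5% ± 0.985 (n = 4) at 3.5 dpi, which did not overlap, and then 22.1% ± 1.55 (n = 3) and 22.6% ± 2.98 (n = 3) at the last time points (adjusted p = 0.0339 over time, permutation test). Leaving out any of 8 mice ended that call.

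Heat shock genes, which code for chaperones and are known to respond to tissue dissociation, did not pass (adjusted p = 0.150, permutation test). Their share was 1.48% ± 0.394 (SD, n = 3) in uninjured mice and 0.923% ± 0.0655 (n = 3) at 5 dpi, and it was higher in quiescent MuSCs than in other cells in 20 of 21 mice. Taken against the other cells of the same mouse, the change over time passed (adjusted p = 0.0183, permutation test). Protein coding genes took 89.7% ± 0.798 (n = 3) of UMIs in uninjured mice and 93.6% ± 0.692 (n = 4) at 3.5 dpi (adjusted p = 0.000980 over time, permutation test), and against the other cells of the same mouse this difference was turned, at -0.027 in place of 0.042 on the log2(percent + 44.2) scale. Antisense transcripts passed (adjusted p = 0.0177, permutation test), but not when the single mouse of 1 dpi was left out. Small nucleolar RNA, microRNA, small nuclear RNA and bidirectional promoter transcripts did not pass (adjusted p = 0.430, 1.00, 1.00 and 0.187, permutation tests).

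**Figure D4:**
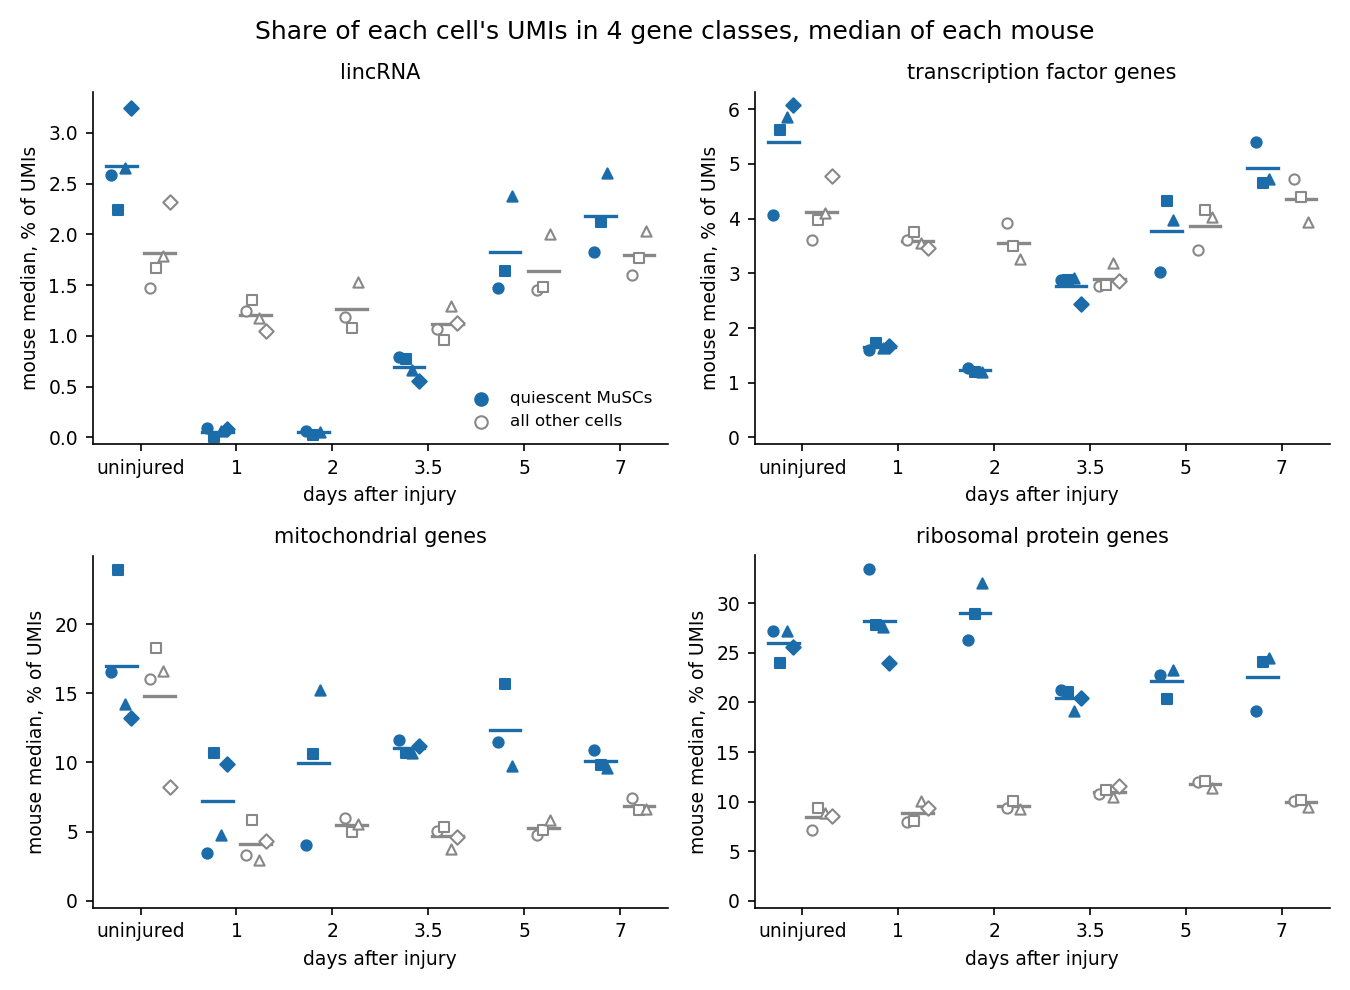
Median share of a cell's UMIs, in percent, from lincRNA, transcription factor, mitochondrial and ribosomal protein genes in each mouse, for quiescent MuSCs (filled) and all other cells (open), with lines at the group means. LincRNA and transcription factor shares of quiescent MuSCs are low from 1 to 3.5 dpi and within or near the uninjured range at 7 dpi, and the ribosomal share is above that of other cells in all 21 mice.

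Within one mouse, quiescent and activated MuSCs could be set side by side in the 10 mice from 3.5 to 7 dpi with at least 5 cells of both. Activated MuSCs are cells that have left quiescence and are entering the cell cycle. As both states were cut from one axis of expression, the differences are descriptions. Quiescent cells had fewer UMIs in 10 of 10 mice, with a mean difference of -3238 ± 2330.1 (SD, n = 10) from the 16929.8 of activated cells, and fewer genes in 9 of 10. They had a higher lincRNA share in 9 of 10 mice (1.48% against 1.17% on average) and a higher transcription factor share in 8 of 10. At 3.5 dpi the activated cells had 0.543% lincRNA and the quiescent cells 0.698%, and at 7 dpi 1.53% and 2.18%, so both states were lower at 3.5 than at 7 dpi.

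The quiescent cells of 3.5 and 5 dpi also had a high doublet score, which is the share of simulated 2-cell mixtures among the nearest neighbours of a cell. The median score was 0.396, 0.340, 0.353 and 0.277 at 3.5 dpi and 0.234, 0.304 and 0.261 at 5 dpi. It was between 0.133 and 0.256 in uninjured mice, and the mice of 7 dpi had 0.0794, 0.199 and 0. The score was above that of the other cells in 4 of 4 mice at 3.5 dpi (means of 0.342 and 0.193) and in 3 of 3 at 5 dpi (0.266 and 0.195). Over 0.25 were 236 of the 246 cells of 3.5 dpi, 310 of 425 of 5 dpi, 44 of 122 in uninjured muscle and 0 of 456 of 7 dpi. Activated MuSCs of 3.5 dpi scored alike, with medians of 0.383, 0.333, 0.346 and 0.277, as did the MuSCs and progenitors without a state, with 0.399, 0.312, 0.358 and 0.283. Cells that the study called doublets had been removed before deposit, and the score depends on settings chosen for each library. With cells of at most 0.25 only, and mice with at least 5 of them, microRNA was not tested, since its mouse medians were all 0. Of the other measures, 6 changed over time. UMIs (adjusted p = 0.0343), genes (0.0163), lincRNA (0.00832) and transcription factor share (0.0163) were among them in the permutation test, and the mitochondrial (0.0570), ribosomal (0.187) and antisense shares (0.293) were not. Only 10 cells of 3.5 dpi were left, and replicate D was the one mouse of that time in the test, with 17150.3 UMIs and 0.710% lincRNA.

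Within 3.5 dpi the cells were not of 1 kind. UMIs ran from 1143 to 59629, with quartiles at 12751 and 23403, whereas in uninjured muscle the quartiles were 4090.3 and 6170.3. Beside the large cells, 25 of 246 had a lincRNA share under 0.2%, 15 of them with under 2000 UMIs. A lincRNA share that low was found in 6 of 425 cells of 5 dpi and 1 of 456 cells of 7 dpi. The 17 cells of 3.5 dpi between 1000 and 2000 UMIs were near the cells of 1 dpi of that size in lincRNA share (medians of 0.0642% and 0.0809%) but not in mitochondrial share (0.104% and 7.04%).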

How the data were processed

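Single-cell RNA sequencing (10x Chromium v3) of 21 samples was used, as 1 table of cells per mouse. The members and lists were chosen with earlier results of these data known. Per the labels and the study's methods, the authors aligned reads to mm10 with Cell Ranger 3.1.0, removed ambient RNA with SoupX, filtered cells with Seurat (3.1.5 in the submitters' processing notes), removed doublets with DoubletFinder and integrated the samples by Harmony, BBKNN and Scanorama. The deposited UMI totals are expected counts, since ambient RNA was subtracted, and are not normalized. The barcodes and reads per library are counts deposited from Cell Ranger. The deposited percent values are shares of a cell's UMIs by gene class and library statistics, and the deposited fraction values are the doublet score and the ambient share, all computed by the authors. The number of genes per cell was used as deposited. The methods name a minimum of 750 genes, but the tables held cells with 498, and 82186 of the 87822 cells and 1249 of the 1285 quiescent MuSCs reached 750. No further filter was applied in the main results.

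Cells were counted by label and mouse with Python 3.11.15, numpy 2.4.6, scipy 1.17.1 and pandas 2.3.3. The mouse was the unit. Time courses were tested by permuting the F statistic 100000 times on arcsine square root shares, or on log2 mouse medians. Percent values had 0.5 times their smallest mouse median above 0 added, so that their log2 differences are understated. This holds also for classes far from 0, where 44.2 was added for protein coding and 9.55 for ribosomal protein genes. Groups were compared in pairs by an exact permutation test (two-sided), in which 3 against 3 mice cannot go below 0.100. P-values were adjusted by Benjamini-Hochberg at 0.05. Measures needed 10 quiescent MuSCs in a mouse, which removed uninjured D, 1 dpi A, B and D and all of 2 dpi. Alternatives were a centred log ratio, edgeR 4.0.16 (R 4.3.3) on numbers of cells, stricter filters (1000 genes, 2000 UMIs, 15% mitochondrial share), other denominators and minimums of cells, the replicate block and leaving out each mouse. Intervals are exact binomial ones (Clopper-Pearson, 95%), a count of 0 allows up to 3 cells, and both cover counting error only. No gene was named by value, since the tables hold none. The tests were checked on simulated data. Figures were drawn with matplotlib 3.10.9.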

Additional observations from a re-analysis of the deposited data

Results flagged for a closer look

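Both values below lie far from the other 3 mice of their group by Dixon's test, which was run on 35 groups of 4 mice and by chance singles out about 1 group in 20. At 1 dpi the quiescent MuSCs of replicate A, of which there were 5, had a median of 564 genes, against 678.5 to 688 in the other mice. At 3.5 dpi those of replicate D had a median transcription factor share of 2.43%, against 2.87% to 2.91% in the others, and this mouse also had the lowest UMIs (15052) and lincRNA share (0.556%) of its group. The cause was not tested.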

How the results depend on the processing

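All 3 time courses of the quiescent share passed under each alternative that was run, with adjusted p from 3.71e-09 to 0.0311 for the share of all cells, 0.000160 to 0.0135 for that of cells with a state and 1.00e-05 to 0.00136 for that of MuSCs and progenitors. Leaving out 1 mouse at a time gave 3.57e-05 to 0.000625, 0.000720 to 0.0265 and 1.00e-05 to 2.00e-05. The single contrasts depended on the scale: 0 of 9 passed for the share of all cells as measured, and 6 of 9 on the arcsine square root scale (1, 2, 5 and 7 dpi against uninjured, 2 against 1 dpi and 3.5 against 2 dpi, each with adjusted p = 0.0429), and as measured it was 0 with any mouse left out. For the other shares the count was 0 under each setting. It could not have been higher with the numbers of mice in the main setting, where the lowest possible adjusted p of the exact permutation test was 0.0857. Of 14 per-cell measures, 9 changed over time. The count was 7 to 10 when 1 mouse was left out, 13 with means in place of medians, 10 with mice of at least 2 quiescent MuSCs, 7 with cells of at least 750 genes, 6 with mice of at least 20 quiescent MuSCs, 6 with a doublet score of at most 0.25 (microRNA not tested), and 0 with cells of 5000 to 15000 UMIs only, where 10 mice were left. Against uninjured, 0 of 42 contrasts passed under each setting. In the main setting none could have passed after adjustment with these numbers of mice, so that count of 0 is no evidence of equal levels. The 8 with an unadjusted p under 0.05 were all of 3.5 dpi, since 3 against 3 mice at 5 and 7 dpi cannot go that low. Taken against the other cells or the capillary endothelial cells of the same mouse, the mitochondrial difference turned from -0.69 to 0.41 and 0.41 (log2). The protein coding difference went from 0.042 to -0.027 and -0.010 (log2). Against capillary endothelial cells its change over time did not pass (adjusted p = 0.625, permutation test), and the mice of 3.5 dpi overlapped the uninjured ones.

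The replicate letters name samples only. Deviations from the group means of mice with the same letter had a median r of -0.00724 over 48 pairs, and of 0.0315 over 135 pairs with different letters. With the replicate block the shares kept their calls (adjusted p = 0.00100, 0.00708 and 0.000160), and 3 of 14 measures passed in place of 9, namely the mitochondrial, transcription factor and lincRNA shares. At 1 and 2 dpi 2 to 11 cells per mouse limit what can be said of single mice.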
